A study of Mus musculus with 12 samples.

Results

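Bcl2, Bcl2l1, Bcl2l11, Mcl1, Bcl2a1b, Bcl2a1d, Bax, Bbc3 and Fas set how readily a T cell dies. They were picked by name, with earlier results of these data known, as 9 of the 55011 genes in the deposited count table. All 9 were among the 13295 genes with enough counts to be tested. The libraries came from regulatory T cells (Treg), the CD4 lymphocytes that hold back other immune cells under control of the transcription factor Foxp3, sorted as live TCRβ+CD4+GFP+CD25+ cells from spleen and lung of male C57BL/6 mice aged 21 days. Each library held the RNA of 1000 sorted cells, and each of the 4 groups had 3 libraries. WT cells of both tissues carried the Foxp3.ires.GFP allele, an intact Foxp3 gene that also makes GFP. Spleen cells without functional Foxp3 are labelled ∆Foxp3.EGFP.iCre X R26.YFP, and those of the lung are labelled ∆Foxp3.ires.GFP, while the protocol text names only the ires.GFP allele for both tissues; whether the alleles differed cannot be told from these sources. With the ∆Foxp3.ires.GFP allele, the GFP gate takes cells that still switched the Foxp3 locus on. Whether this holds for the spleen ∆Foxp3 cells cannot be told, since their label also names R26.YFP. The labels do not tie each library to a mouse of its own, so a p-value speaks only of the spread among libraries, and that spread may be technical.

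Mitochondrial apoptosis is decided by binding between BCL2 family proteins. The anti-apoptotic members (BCL2, BCL-XL from Bcl2l1, MCL1 and the BCL2A1 proteins) hold the pore formers BAX and BAK in check, and the BH3-only proteins, such as BIM from Bcl2l11 and PUMA from Bbc3, bind and neutralise the anti-apoptotic members. Fas is a surface receptor that recruits caspase-8 when Fas ligand engages it, a second route to death. Treg are known to need MCL1 for their survival, and BIM is known as the main BH3-only protein that removes them.

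Bcl2a1b and Bcl2a1d, near-identical copies on chromosome 9, differed between genotypes in both tissues, so their sequences are given first. These are the first 100 coding bases of the copies in GRCm38 (mm10), 5′ to 3′ along the coding strand, with capitals where the 3 copies do not all carry the same base; they show how few positions allow a read to be assigned to a single copy. The stretches lie at chr9:89199360-89199459 (plus strand, Bcl2a1b), chr9:88731620-88731719 (minus strand, Bcl2a1d) and chr9:88957051-88957150 (plus strand, Bcl2a1a).
Bcl2a1b: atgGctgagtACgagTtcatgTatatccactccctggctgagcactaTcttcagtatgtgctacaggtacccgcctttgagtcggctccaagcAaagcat
Bcl2a1d: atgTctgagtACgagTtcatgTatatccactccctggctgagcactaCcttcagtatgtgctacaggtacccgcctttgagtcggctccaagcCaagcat
Bcl2a1a: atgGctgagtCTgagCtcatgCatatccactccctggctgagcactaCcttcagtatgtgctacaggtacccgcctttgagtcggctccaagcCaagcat
Over their 516 coding bases, Bcl2a1b and Bcl2a1d differ at 6 positions, 98.84% identical: G4T, T48C, A94C, G312A, C381G and T490A, counted from 1 at the A of the start codon, with the Bcl2a1b base first. Only 15.5% of the 38-base words of the Bcl2a1b transcript, and 14.4% of those of Bcl2a1d, occur in no other annotated gene, and reads were 38 nt from each end. No source used here says how the counting treated reads that match several copies. The split between the copies is therefore uncertain, and their sum is given beside each of them. Among the other members, 92.8% of the words of Bcl2, 85.2% of those of Bax (the rest shared with Gm45808) and over 99.4% of those of the remaining genes were found in no other gene.

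The promoters of the same copies are almost as alike. RefSeq (GRCm38.p6) gives the stretches below, upstream of the annotated starts, 142 bases at chr9:89199023-89199164 (plus strand) for Bcl2a1b and 136 bases at chr9:88731915-88732050 (minus strand) for Bcl2a1d. Capitals mark the 1 base that differs and the 6 bases that Bcl2a1d lacks.
Bcl2a1b: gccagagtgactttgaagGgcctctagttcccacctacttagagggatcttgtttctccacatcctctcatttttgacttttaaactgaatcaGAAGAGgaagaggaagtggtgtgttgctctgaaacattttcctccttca
Bcl2a1d: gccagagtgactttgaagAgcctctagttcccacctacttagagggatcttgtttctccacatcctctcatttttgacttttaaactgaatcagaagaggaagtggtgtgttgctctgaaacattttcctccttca
Both hold tgaatca at bases 87 to 93, a match to the loose AP-1 search letters TGANTCA, where N is any base. The middle base is A here, not the C or G of the usual AP-1 site. A search of both strands of the 32851 RefSeq promoters, from 250 bases before to 50 after each start, found these letters in 7.81% of all promoters and in 3 of the 14 promoters of the members (1 each of Bcl2a1b, Bcl2a1d and Fas). The NF-kB letters (GGGA and TTCC around any pair of bases) were in none of the 14 and in 1.47% of all. The STAT letters TTCNNNGAA were in the Fas promoter and in 8.3% of all, and the FOXO letters TGTTTAC were in promoters of Bbc3 and Bcl2l11 and in 3.65% of all. A match is a run of letters and does not show binding. A missing match does not show that a site is absent, since other spellings and bases outside the window were not searched.

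The sorted libraries were checked before the members were compared. Total counts ran from 3958892 to 9025150 per library, and 3 counts, the limit that a count of 0 allows, correspond to 0.334 to 0.777 CPM. CPM here are counts scaled to the library's total over tested genes, multiplied by edgeR's TMM factor. Foxp3 was at 991 to 1096 CPM in spleen WT and 1328 to 1418 in lung WT, against 114 to 227 and 189 to 469 in the ∆Foxp3 groups; the labels do not say which part of the gene is deleted. The 8 T cell markers summed to 5301 to 7912 CPM in every library. 3 libraries stood apart, chosen after the data were seen: spleen WT 1, where Gm10800 and Gm10801 took 0.112% of counts against 0.743% to 2.94% elsewhere, lung WT 1, with the myeloid gene Lyz2 at 126 CPM against at most 7.57, and lung ∆Foxp3 3, with 2.44% mitochondrial counts against 1.40% to 1.63%. For the members and the list genes picked by rule, values without all 3 are given beside each reported genotype call that they change. Genes named after their values were seen were not followed in this setting. Erythroid and platelet markers (8 genes) summed to 1975 to 4902 CPM in lung WT, 1.19 to 408 in lung ∆Foxp3, 9.10 to 16.6 in spleen WT and 12.2 to 397 in spleen ∆Foxp3, and their part in the results was not tested.

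In spleen, 4 of the 9 members passed the test between genotypes (edgeR's quasi-likelihood test, Benjamini-Hochberg adjusted over all 13295 genes, called at an adjusted p under 0.05), where 26.6% of all genes passed. Bcl2a1b and Bcl2a1d were higher in ∆Foxp3 Treg, and Mcl1 and Fas were lower, beside 14.1% of all genes called higher and 12.5% called lower. The 4 genes were called in the same directions in lung, where 20.2% of all genes passed, 9.74% higher and 10.5% lower. The remaining members, Bcl2, Bcl2l1, Bcl2l11, Bax and Bbc3, did not pass in either tissue. The median log2 fold change of the 9 members was 0.10 in spleen and -0.18 in lung, beside -0.022 and -0.013 over all tested genes. Because whole pools of cells were sequenced, fewer cells that make a transcript and less of it in each cell cannot be told apart in any of these values.

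**Figure D1:**
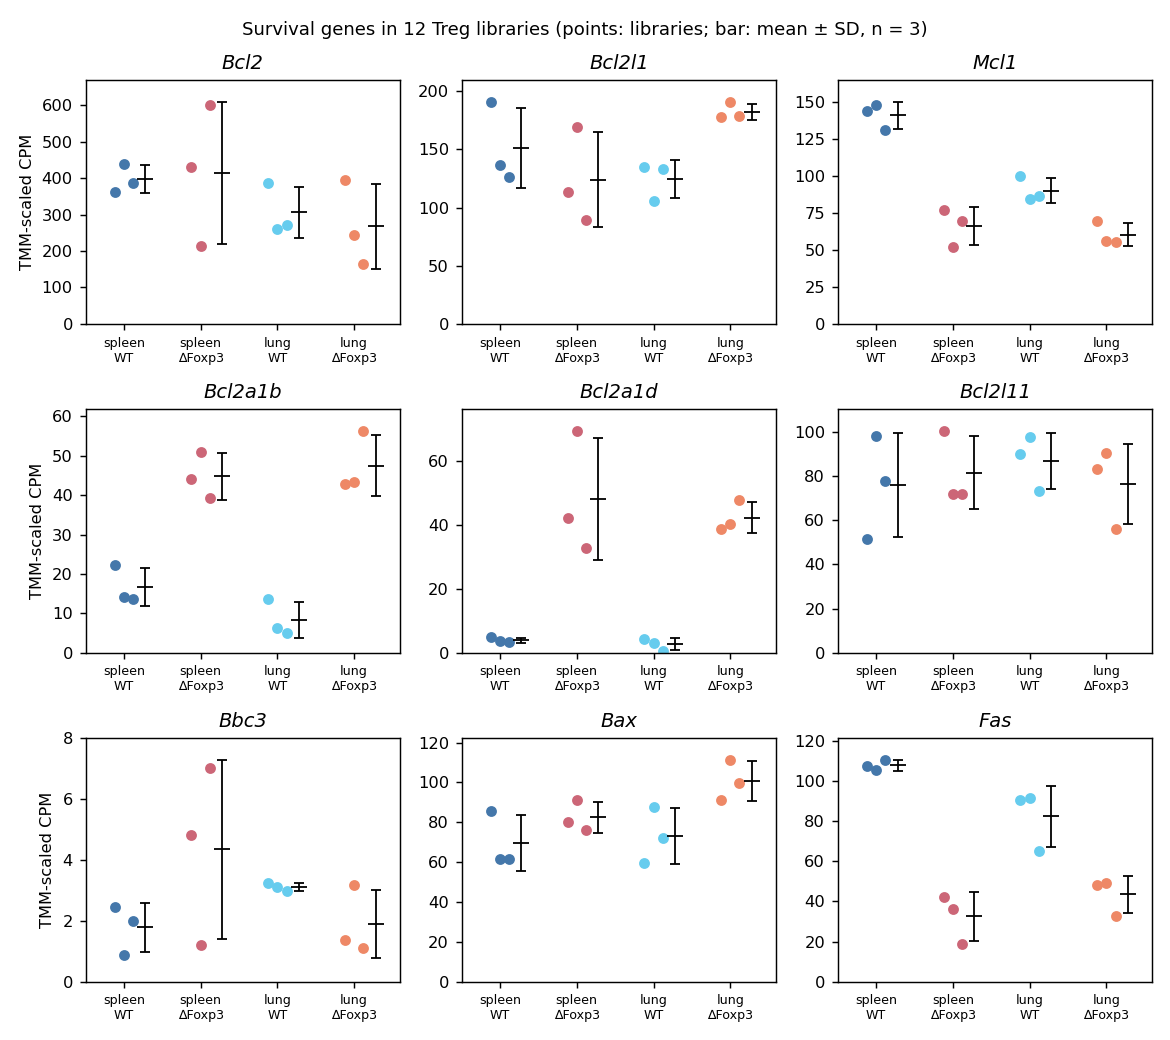
Scaled CPM of the 9 genes (y axes, linear and starting at 0) in each of the 12 libraries, grouped by tissue and genotype on the x axes; points are libraries and the bar is the mean ± SD of 3. Bcl2a1b and Bcl2a1d lie higher in every ∆Foxp3 library than in every WT library of the same tissue, Mcl1 and Fas lie lower, and the groups of Bcl2 and Bcl2l11 overlap.

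Bcl2a1b, which encodes an anti-apoptotic protein that lymphocytes are known to make after activation, measured 22.3, 14.1 and 13.6 CPM in the spleen WT libraries 1 to 3, and the spleen ∆Foxp3 libraries held 44.2, 50.8 and 39.2 CPM. The lung WT libraries held 13.6, 6.22 and 5.10 CPM, and those of lung ∆Foxp3 42.9, 43.2 and 56.3 CPM. Every ∆Foxp3 library was above every WT library of its tissue, and among the WT libraries the first of each tissue, a library that stood apart, was the highest. Bcl2a1b rose by a log2 fold change of 1.41 ± 0.32 (SE of the fit; adjusted p = 0.00426, edgeR) in spleen, a 2.67-fold higher level, and 2.52 ± 0.34 (adjusted p = 0.000191, edgeR) in lung, a 5.72-fold higher level. Without the 3 libraries that stood apart it was 1.73 in spleen and 2.96 in lung, still called in both (adjusted p = 0.000376 and 0.000111, edgeR; over all alternatives, at most 0.0216 and 0.00214).

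Bcl2a1d, the other tested copy, had few counts in WT Treg. Spleen WT libraries held 4.90, 3.57 and 3.39 CPM (44, 20 and 22 counts) and spleen ∆Foxp3 libraries 42.2, 69.5 and 32.9 CPM. Lung WT libraries held 4.31, 3.11 and 0.703 CPM (20, 12 and 4 counts), against 38.8, 40.4 and 47.8 CPM in lung ∆Foxp3. The genotypes were separated by a wide gap in both tissues. On the log2 scale the difference was 3.58 ± 0.43 in spleen (adjusted p = 3.31e-05, edgeR) and 4.0 ± 0.46 in lung (adjusted p = 5.19e-05, edgeR), which are 12-fold and 16-fold, and it stayed called under every alternative tried, between 3.23 and 3.82 in spleen and between 3.53 and 4.61 in lung.

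Counted as 1 feature, Bcl2a1a, Bcl2a1b and Bcl2a1d together rose in spleen by a log2 change of 2.16 ± 0.33 (adjusted p = 0.000273, edgeR) and by 3.04 ± 0.35 in lung (adjusted p = 6.05e-05, edgeR). This sum takes no account of how counted reads were divided among the copies. Bcl2a1a had too few counts to be tested, with 8 (WT) and 26 (∆Foxp3) counts in all in spleen and 1 and 16 in lung. The share of Bcl2a1d in the counts of Bcl2a1b and Bcl2a1d was 18.0% to 20.2% in spleen WT and 45.6% to 57.8% in spleen ∆Foxp3. In lung it was 12.1% to 33.3% in WT, where 2 libraries held only 36 and 33 such counts, and 45.9% to 48.3% in ∆Foxp3. The shares of the genotypes did not overlap in either tissue, and the exact Clopper-Pearson 95% interval of the lung WT library with 36 counts, 18.6% to 51.0%, reached into the ∆Foxp3 range. These intervals cover counting error only, since the PCR copies of one molecule could not be told from separate molecules, and the share rests on the few positions that separate the copies.

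**Figure D2:**
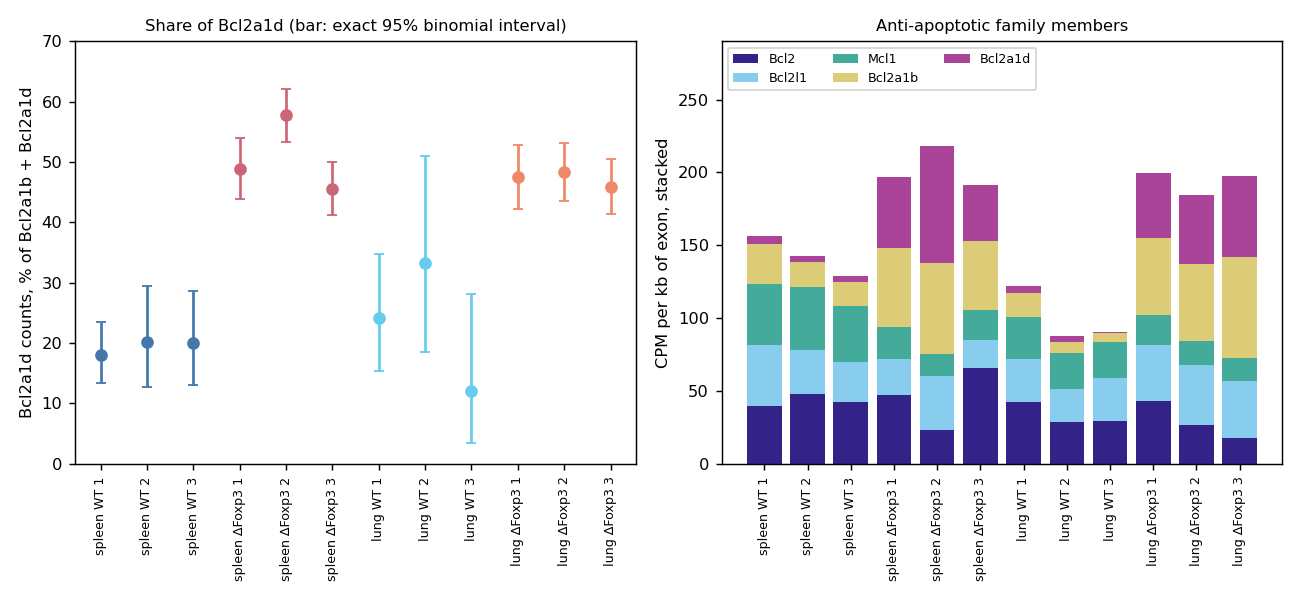
On the left, Bcl2a1d counts as a percentage of Bcl2a1b and Bcl2a1d counts in each of the 12 libraries, with exact 95% binomial intervals that cover counting error only; on the right, scaled CPM per kilobase of exon of 5 anti-apoptotic genes, stacked per library. The share was 12.1% to 33.3% in WT libraries and 45.6% to 57.8% in ∆Foxp3 libraries, and the stacked Bcl2a1 portion was wider in every ∆Foxp3 library.

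Myeloid cells also make Bcl2a1 transcripts, so markers of other cells were read beside this result, and their part in it was not tested. In lung, the 10 macrophage, monocyte and dendritic cell markers ranged over 252 to 505 CPM for the WT libraries and 159 to 237 CPM for the ∆Foxp3 libraries, mostly Ctss, which T cells can also express. Csf1r, the receptor that marks macrophages, was at 0, 0 and 0.223 CPM in lung ∆Foxp3 and at 6.03, 1.30 and 0.352 CPM in lung WT. Neutrophil and mast cell markers (8 genes) summed to 1.30 to 31.7 CPM in lung WT, with the highest value in lung WT 1, and to 1.19 to 1.85 CPM in lung ∆Foxp3, where S100a8 and Csf3r had no count. In spleen, the same macrophage list came to 364 to 574 CPM for WT and 265 to 627 CPM for ∆Foxp3, and Csf1r was at 28.6, 27.2 and 9.10 CPM in WT against 110, 13.2 and 49.9 CPM in ∆Foxp3. Of 9 tested genes of that list, 2 were called higher and 1, Ctss, lower in spleen ∆Foxp3. The 2 were Mrc1, at 4.12, 1.25 and 0.926 CPM in WT and 50.5, 2.40 and 20.8 CPM in ∆Foxp3, and Itgax, without a count in WT, against 0.874, 3.84 and 3.01 CPM for the ∆Foxp3 libraries. Without Ctss the list summed to 151, 62.5 and 30.4 CPM in spleen WT libraries 1 to 3 and to 374, 45.3 and 170.2 CPM in spleen ∆Foxp3. In lung these sums were 148, 8.55 and 5.27 CPM for WT and 4.15, 11.5 and 16.1 CPM for ∆Foxp3. B and plasma cell markers, nearly all of them Ighm, were lower in both ∆Foxp3 groups, at 78.5 to 161 against 1135 to 1310.5 CPM in spleen and 134 to 265 against 1954 to 1990 CPM in lung.

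Mcl1, which encodes a short-lived protein that keeps Treg and other lymphocytes alive, was lower in ∆Foxp3 Treg. Spleen WT libraries held 144, 148 and 131 CPM and spleen ∆Foxp3 libraries 76.9, 52.3 and 69.3 CPM. In lung, WT libraries held 99.7, 84.2 and 86.1 CPM and ∆Foxp3 libraries 69.5, 56.1 and 55.4 CPM. The genotypes did not overlap in either tissue, with a narrower gap in lung. The spleen difference was -1.09 ± 0.17 on the log2 scale (adjusted p = 0.000312, edgeR), a 2.13-fold lower level, and it was called under all alternatives. The lung difference was -0.58 ± 0.17 (adjusted p = 0.0275, edgeR), 1.49-fold lower. This lung call was lost without a low-count filter (adjusted p = 0.0573, edgeR), without lung WT 1, 2 or 3, without lung ∆Foxp3 2 or 3 (-0.59 to -0.46, adjusted p = 0.0679 to 0.139, edgeR) and without the 3 libraries that stood apart (-0.41, adjusted p = 0.254, edgeR; over all alternatives 0.00614 to 0.254).

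Among WT Treg alone, Mcl1 was lower in lung than in spleen, by -0.65 ± 0.17 on the log2 scale (adjusted p = 0.0434, edgeR), and the 3 lung libraries lay below the 3 spleen libraries. It was the only member of the 9 called between tissues in WT, where 4.13% of all genes were called (3.1% higher and 1.03% lower in lung). The call was lost in 13 of 23 alternatives, among them the removal of any of 10 single libraries, with adjusted p from 0.0101 to 0.191 (edgeR and the other tools). The WT libraries of the tissues also did not overlap for Bcl2a1b and Fas, which lay lower in lung, and for Bbc3, which lay higher, 4 of 9 members against 25.6% of all genes. For Bcl2a1b the margin rounds away, with 13.6 CPM on either side. Of these, Bcl2a1b came to -1.01 ± 0.34 (adjusted p = 0.107, edgeR; 0.0159 to 0.357 over the alternatives). Lung and spleen were prepared differently, lungs with perfusion, enzyme digestion at warm temperature and magnetic enrichment, and markers of the dissociation response (14 genes) summed to 1567 to 4995 CPM in lung WT against 678 to 1364 CPM in spleen WT. Tissue and preparation cannot be told apart.

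Bcl2, the founding anti-apoptotic gene, showed no difference between genotypes that exceeded the spread of the libraries. Its values were 363, 439 and 388 CPM in spleen WT, 431, 213 and 600.4 CPM in spleen ∆Foxp3, 387, 261 and 270.2 CPM in lung WT, and 395, 244 and 164 CPM in lung ∆Foxp3. The ∆Foxp3 libraries of each tissue spread on both sides of the WT libraries, with a coefficient of variation of 46.8% in spleen ∆Foxp3 and 9.77% in spleen WT. The log2 difference was 0.066 in spleen, with a 95% interval from -0.69 to 0.82, and -0.20 in lung, from -0.96 to 0.56. Changes of about the size seen for Mcl1 in lung lie inside both intervals.

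Bcl2l1, which encodes BCL-XL, ran in different directions in the tissues. Spleen WT libraries held 191, 137 and 126 CPM and spleen ∆Foxp3 libraries 113, 169 and 89.3 CPM, which overlap. Lung WT libraries held 134, 105 and 133 CPM, all below the 178, 190.3 and 178 CPM of lung ∆Foxp3. The log2 difference was -0.29 ± 0.22 in spleen (adjusted p = 0.344, edgeR) and 0.55 ± 0.22 in lung (adjusted p = 0.0857, edgeR), and neither passed. The lung value passed in 6 of 23 alternatives, including limma voom and a fit of the lung libraries alone, over an adjusted p range of 0.0041 to 0.24, and not without the 3 libraries that stood apart (0.65, adjusted p = 0.131, edgeR). The difference between the tissues' genotype effects was 0.84 ± 0.31 (unadjusted p = 0.0145, adjusted p = 0.329, edgeR) and was not called.

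**Figure D3:**
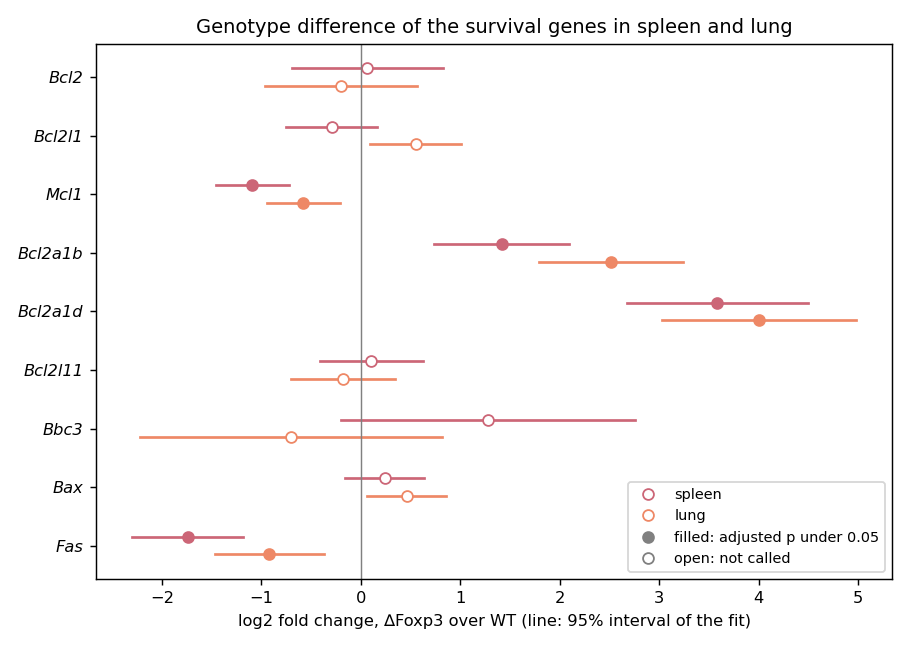
Log2 fold change (∆Foxp3 minus WT) of each of the 9 genes in spleen and in lung, with 95% confidence intervals of the edgeR fit; points right of the line at 0 are higher in ∆Foxp3. The intervals of Bcl2a1b, Bcl2a1d, Mcl1 and Fas exclude 0 in both tissues, those of Bcl2l1 and Bax exclude 0 in lung although their adjusted p-values missed the threshold, and the rest span 0.

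Put on a common scale of CPM per kilobase of exon, the make-up of the anti-apoptotic transcripts differed between genotypes. In spleen WT the levels of Bcl2, Mcl1 and Bcl2l1 (means 43.3, 41.2 and 33.0 CPM per kb) overlapped their neighbours in rank, and Bcl2a1b (20.4) and Bcl2a1d (4.58) lay below them. In spleen ∆Foxp3 the order began with Bcl2a1d and Bcl2a1b (55.8 and 54.7 CPM per kb), followed by Bcl2 (45.3), Bcl2l1 (27.0) and Mcl1 (19.4), each overlapping the next. Lung WT ranked Bcl2, Bcl2l1 and Mcl1 (33.5, 27.1 and 26.3 CPM per kb), overlapping, above Bcl2a1b (10.2) and Bcl2a1d (3.14). Lung ∆Foxp3 had Bcl2a1b and Bcl2a1d (58.1 and 49.1 CPM per kb) first, Bcl2l1 (39.7) and Bcl2 (29.2) next and Mcl1 (17.6) last. As a share of the summed level per kb of these 5 genes, the Bcl2a1 pair made up 15% to 21.1% in spleen WT and 45.0% to 65.5% in spleen ∆Foxp3, and 7.77% to 17.6% in lung WT and 48.8% to 63.0% in lung ∆Foxp3. The sum itself was 129 to 156 CPM per kb in spleen WT against 191 to 218 in spleen ∆Foxp3, and 87.4 to 122 in lung WT against 184 to 199.7 in lung ∆Foxp3. These are transcript levels over the length of all annotated exons of a gene, and the ranks and shares of the Bcl2a1 pair depend on how reads matching several copies were counted, which is not known.

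Bcl2l11, which encodes BIM, did not separate the groups. Its libraries lay at 51.5 to 98.1 CPM in spleen WT, 71.7 to 100.3 in spleen ∆Foxp3, 73.0 to 97.4 in lung WT and 56.1 to 90.4 in lung ∆Foxp3. All 4 ranges overlapped. The log2 difference between genotypes was 0.10 in spleen (95% interval -0.41 to 0.62; adjusted p = 0.792, edgeR) and -0.18 in lung (-0.70 to 0.34; adjusted p = 0.655, edgeR).

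Bbc3, which encodes the p53 target PUMA, was scarce. It had 0.893 to 2.45 CPM in spleen WT (40 counts over 3 libraries), 1.20 to 7.03 CPM in spleen ∆Foxp3 (76 counts), 2.99 to 3.23 CPM in lung WT (44 counts) and 1.12 to 3.17 CPM in lung ∆Foxp3 (27 counts). Genotypes overlapped in both tissues. The log2 differences of 1.27 ± 0.69 in spleen and -0.70 ± 0.71 in lung had 95% intervals from -0.20 to 2.75 and from -2.22 to 0.82. Severalfold changes, up in spleen and down in lung, lie inside these intervals.

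Bax, one of the pore formers, held 85.6, 61.8 and 61.4 CPM in spleen WT and 80.0, 91.1 and 76.2 CPM in spleen ∆Foxp3. Its lung values were 59.7, 87.8 and 72.1 CPM in WT and 91.1, 111 and 99.8 CPM in ∆Foxp3. The groups overlapped in spleen through spleen WT 1, a library that stood apart, and did not overlap in lung. Neither difference passed, at 0.24 ± 0.19 in spleen (adjusted p = 0.371, edgeR) and 0.46 ± 0.19 in lung (adjusted p = 0.0925, edgeR; 0.029 to 0.253 over the alternatives). Averaged over the tissues, Bax was higher in ∆Foxp3 by 0.35 ± 0.13 (adjusted p = 0.0452, edgeR), and 9 of 22 alternatives lost that call, with adjusted p up to 0.102. It was kept without the 3 libraries that stood apart (0.42, adjusted p = 0.031, edgeR; 0.00626 to 0.102 over the alternatives). In that average 5 of the 9 members were called, Bax with the 4 named above, beside 39.2% of all genes (20.2% higher and 19% lower).

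Fas, the death receptor, was lower in ∆Foxp3 Treg. Spleen WT libraries lay close together at 107, 105 and 111 CPM, and spleen ∆Foxp3 libraries held 42.4, 36.2 and 18.9 CPM. Lung WT libraries held 90.7, 91.7 and 65.0 CPM and lung ∆Foxp3 libraries 48.5, 49.4 and 32.8 CPM. No ∆Foxp3 library reached the lowest WT library of its tissue. The log2 difference was -1.74 ± 0.26 in spleen (adjusted p = 0.000236, edgeR), a 3.34-fold lower level that was called under all alternatives. In lung it was -0.92 ± 0.26 (adjusted p = 0.0216, edgeR), 1.89-fold lower. The lung call was lost without lung WT 1 or 2, without lung ∆Foxp3 2 or 3 (-0.98 to -0.72, adjusted p = 0.0505 to 0.12, edgeR) and without the 3 libraries that stood apart (-0.65, adjusted p = 0.213, edgeR; over all alternatives 0.000783 to 0.213).

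Whether the genotype effect differed between tissues was tested for each member. Of the 9 members, 0 were called, where 0.925% of all genes were (0.143% with a positive and 0.782% with a negative difference); edgeR gave an unadjusted p under 0.05 for 3 of them, and DESeq2 and limma voom each called 0. The 3 were Bcl2l1, Bcl2a1b (1.1 ± 0.45, adjusted p = 0.441) and Fas (0.82 ± 0.36, adjusted p = 0.499), all from edgeR. For Mcl1 the difference was 0.51 (95% interval -0.00058 to 1.02). Between tissues in ∆Foxp3 Treg, edgeR called 0 of the 9 members, beside 0.722% of all genes (0.549% higher and 0.173% lower in lung); 1 had an unadjusted p under 0.05, DESeq2 called 0, and limma voom called 1, Bcl2l1 (0.64, adjusted p = 0.0476), which edgeR put at 0.56 ± 0.22 (adjusted p = 0.415). Bcl2l1 and Bax lay higher in the lung than in the spleen ∆Foxp3 libraries without overlap (Bax by a margin that rounds away, 91.1 CPM on either side), 2 of 9 members against 15.5% of all genes. In lung, 6 of 9 members had genotypes that did not overlap, against 45.3% of all genes, and in spleen 4 of 9, against 38.2%.

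The ligand of Fas moved the other way. Fasl, which cytotoxic and activated T cells use to trigger Fas on their targets, was at 0.223, 5.36 and 4.32 CPM in spleen WT and 24.0, 31.9 and 17.2 CPM in spleen ∆Foxp3. Lung WT libraries held 1.72, 3.37 and 0.527 CPM and lung ∆Foxp3 libraries 26.5, 52.7 and 49.4 CPM. The genotypes did not overlap, and Fasl rose by 2.93 ± 0.70 in spleen (adjusted p = 0.00737, edgeR) and 4.58 ± 0.78 in lung (adjusted p = 0.00133, edgeR). Spleen WT held 60 Fasl counts in all and lung WT 24, and the lowest spleen WT library held under 3, so both changes rest on few WT counts. CD8 T and NK cell markers (5 genes) summed to 29.6 to 35.6 CPM in spleen WT and 14.2 to 40.4 in spleen ∆Foxp3. In lung they summed to 21.0 to 22.0 CPM in WT and 14.8 to 68.4 in ∆Foxp3. Of 3 tested, 0 were called in either tissue. Klrc1, too scarce to be tested, had no count in lung WT and 0.461, 11.5 and 15.4 CPM in lung ∆Foxp3. The part of these cells in the Fasl values was not tested.

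Of the 13 tested genes of the death receptor pathway, 2 rose and 5 fell in spleen, and 2 rose and 5 fell in lung. Among all tested genes, 14.1% were called higher and 12.5% lower in spleen, and 9.74% and 10.5% in lung. The list's median log2 fold change was -0.17 in spleen and -0.38 in lung. Besides Fasl, the ligand gene Tnfsf10, which encodes TRAIL, rose by 0.86 in spleen and 0.82 in lung, with the calls lost in 3 and 4 of 23 alternatives. Besides Fas, the genes that fell in both tissues were Casp8, the initiator caspase (-0.86 and -0.54), Cflar, which encodes its inhibitor c-FLIP (-0.74 and -0.67), and the TNF receptor gene Tnfrsf1a (-1.38 and -1.75). Tnfrsf1b fell in spleen (-0.69, adjusted p = 0.029, edgeR) and Fcmr fell in lung (-3.90 ± 1.12, adjusted p = 0.0239, edgeR), from few counts. The Casp8 call in lung was close to the threshold (adjusted p = 0.0491, edgeR) and was lost in 12 of 23 alternatives. Without the 3 libraries that stood apart, the lung calls of Tnfsf10 (0.77), Casp8 (-0.47), Cflar (-0.54, adjusted p = 0.101, edgeR; at most 0.101 over the alternatives) and Tnfrsf1a (-1.28) were lost. In that setting, 14 of 32 named list calls were lost in lung and 5 of 28 in spleen, and all genes called in lung went from 2686 to 1321.

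Other genes of the mitochondrial route changed in part. The counts below stand beside 14.1% of all tested genes called higher and 12.5% lower in spleen, and 9.74% and 10.5% in lung. Among 7 tested BH3-only genes 1 rose in each tissue, Pmaip1, which encodes NOXA (0.82 ± 0.27 in spleen, adjusted p = 0.0378, and 0.83 ± 0.27 in lung, adjusted p = 0.0436, edgeR). Its spleen groups overlapped through spleen WT 1, at 41.8 CPM beside 17.9 and 20.4 CPM in the other WT libraries. The calls of Pmaip1 were lost in 5 (spleen) and 6 (lung) of 23 alternatives. Neither pore former passed within a tissue, and in the average over tissues Bak1, the gene of BAK, was called with Bax (0.85 ± 0.25, adjusted p = 0.0131, edgeR). Of 6 tested anti-apoptotic genes, the Bcl2a1 pair rose and Mcl1 fell in each tissue. Among 7 tested genes with a more distant relation to BCL2, Bnip3l, a mitophagy receptor, fell in both (-0.65 and -0.93; in spleen -0.51 and not called without the 3 libraries that stood apart), and Bcl2l15 rose in lung from a low level (2.93 ± 0.84, adjusted p = 0.0244, edgeR).

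Downstream of the mitochondrion, 12 genes of the apoptosome and the executioner caspases were tested, with 3 higher and 1 lower in spleen and 3 higher and 2 lower in lung. These and the counts below stand beside 14.1% of all tested genes called higher and 12.5% lower in spleen, and 9.74% and 10.5% in lung. Cycs, the gene of cytochrome c, rose by 0.88 and 1.03, with its spleen call lost in 14 of 23 alternatives, and Htra2, a mitochondrial protease gene, rose in lung (0.80). Without the 3 libraries that stood apart, Cycs was called in neither tissue (1.05 and 1.03) and Htra2 not in lung (0.70). Apaf1, the scaffold of the apoptosome, rose in spleen (1.53 ± 0.33, adjusted p = 0.00347, edgeR) and was at 0.19 in lung, and the difference between those effects was not called (-1.34, adjusted p = 0.286, edgeR). Casp6 fell in both tissues (-0.82 and -0.95, lost in 4 and 3 of 23 alternatives), and was called in neither without the 3 libraries that stood apart (-0.54 and -0.67). Casp9, the initiator of the apoptosome, fell in lung (-1.15 ± 0.27, adjusted p = 0.00848, edgeR) beside -0.69 in spleen. Among 7 inhibitor of apoptosis genes, 3 were higher and 1 lower in spleen, and 1 higher and 2 lower in lung. Naip5, known as an inflammasome sensor gene, rose in both (2.17 and 1.65), Naip2 in spleen (1.58), Birc6 fell in both (-0.40 and -0.47) and Birc2 fell in lung (-0.54). Of 23 alternatives, 7 lost the Birc6 call in spleen and 6 in lung, 9 lost that of Birc2 and 5 that of Naip5 in lung, the last 3 of these calls also being lost without the 3 libraries that stood apart (-0.48, -0.41 and 1.71). Birc5, whose product survivin also serves cell division, rose by 3.70 ± 0.39 in spleen (adjusted p = 2.38e-05, edgeR). The 8 cell cycle markers summed to 269 to 415 CPM in spleen WT and 1447 to 3427 CPM in spleen ∆Foxp3, and to 972 to 1456 and 2074 to 2954 CPM in lung; their part in the Birc5 values was not tested.

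**Figure D4:**
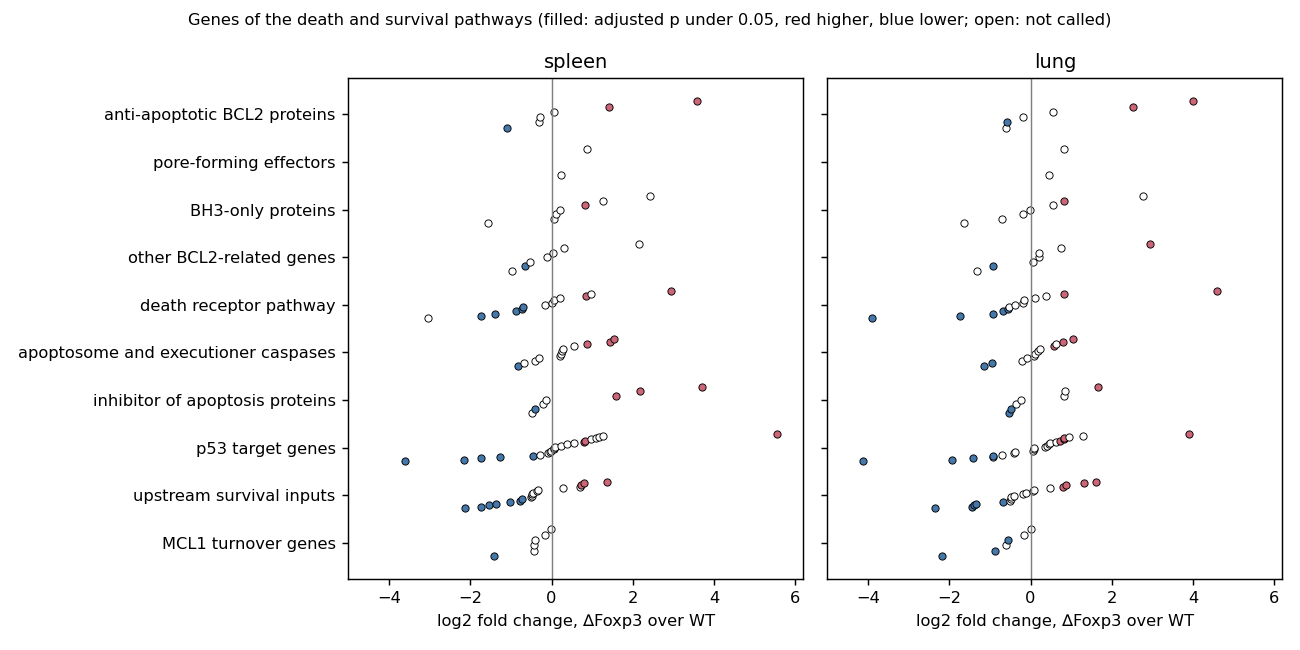
Log2 fold changes (x axes, ∆Foxp3 over WT) of the tested genes of 10 lists (rows) in spleen and lung, 1 point a gene, filled where the adjusted p was under 0.05 (red higher, blue lower) and open where not called. Most genes of the upstream list lie left of 0 and both pore formers lie right of it in each tissue, and the farthest filled points are Cdkn1a on the right in spleen (5.56) and Sesn1 on the left in lung (-4.12).

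Bax, Bbc3, Pmaip1 and Fas are also known targets of p53. The p53 list held known targets together with Trp53 itself and Mdm4. Of its 22 tested genes, 3 rose and 5 fell in spleen, and 4 rose and 4 fell in lung, with list medians of 0.073 and 0.23. Among all tested genes, 14.1% were called higher and 12.5% lower in spleen, and 9.74% and 10.5% in lung. Cdkn1a, the cell cycle inhibitor p21, was at 0.111, 1.61 and 1.54 CPM in spleen WT and 25.6, 92.3 and 25.7 CPM in spleen ∆Foxp3, and at 17.7, 4.92 and 4.92 CPM in lung WT and 69.2, 138 and 202 CPM in lung ∆Foxp3. It rose in both tissues (5.56 ± 0.87, adjusted p = 0.000643, and 3.89 ± 0.71, adjusted p = 0.00275, edgeR), from counts near the limit in spleen WT 1. Sesn1, a stress-induced sestrin, fell from 435 to 474 CPM in spleen WT to 24.5 to 54.0 in spleen ∆Foxp3 (-3.59 ± 0.24), and from 355 to 412 to 17.2 to 26.3 in lung (-4.12 ± 0.25). Trp53inp1 fell in both tissues (-1.27 and -1.94). Ccng1 rose in spleen (0.80, adjusted p = 0.0423, edgeR, lost in 5 of 23 alternatives) and Mdm4 fell there (-0.46, adjusted p = 0.0398, edgeR). In lung, Aen rose (0.73, lost in 6 of 23 alternatives) and Sesn2 fell (-1.42). Without the 3 libraries that stood apart, Ccng1 (0.52) and Aen (0.73) were not called. Trp53 itself was not called (-0.29 in spleen and 0.36 in lung).

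Upstream of the members, 18 genes of cytokine, kinase, FOXO and NF-kB signalling were tested, with 3 higher and 7 lower in spleen and 4 higher and 5 lower in lung, and medians of -0.47 and -0.30. Among all tested genes, 14.1% were called higher and 12.5% lower in spleen, and 9.74% and 10.5% in lung. Foxo1, a FOXO factor known to drive Bcl2l11 and resting T cell genes, was at 134, 162 and 174 CPM in spleen WT and 31.3, 42.9 and 32.6 CPM in spleen ∆Foxp3, and at 177 to 193 against 28.1 to 44.8 CPM in lung. The groups did not overlap, and Foxo1 fell by 2.14 in spleen (adjusted p = 4.59e-06, edgeR) and by 2.36 in lung (adjusted p = 3.76e-06, edgeR). Foxo3 fell by 1.73 and 1.40. Pim1, a survival kinase induced by STAT5, fell by 1.53 and 1.45, whereas Pim2 rose by 0.73 (lost in 5 of 23 alternatives) and 1.32. Stat5b fell by 0.73 in spleen and 1.35 in lung, and Il4ra by 0.77 and 0.67. Nfkb1, an NF-kB subunit gene, rose from 159 to 182 CPM in spleen WT to 281 to 712 in spleen ∆Foxp3 (1.37 ± 0.27, adjusted p = 0.00217, edgeR) and from 192 to 203 to 520 to 683 in lung (1.62 ± 0.27, adjusted p = 0.00115, edgeR). Nfkb2 and Relb rose in lung (0.88 and 0.80), Akt1 rose in spleen (0.81), and Rel fell in spleen (-1.36 ± 0.35, adjusted p = 0.0119, edgeR). Il2ra, the CD25 gene on which the cells were gated, fell in spleen (-1.02 ± 0.23, adjusted p = 0.00531, edgeR). Of 6 tested genes listed for MCL1 turnover, 1 fell in spleen and 3 fell in lung. Trib2 fell in both (-1.43 and -2.18), and Trib1 fell in lung (-0.87, lost in 5 of 23 alternatives). Huwe1, an MCL1 ubiquitin ligase, also fell in lung (-0.56, lost in 5 of 23 alternatives). A part of Trib1 and Trib2 in MCL1 turnover is not established, so the counts of this list do not speak for MCL1 turnover. Huwe1 (-0.52) and Trib1 (-0.62) in lung and Pim2 in spleen (0.82) were not called without the 3 libraries that stood apart.

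Across the lists, 11 of 96 tested genes rose in both tissues (11.5%, against 6.84% of all tested genes) and 17 fell in both (17.7%, against 7.18%). The lists were chosen with earlier results of these data known, so these shares describe the lists and test nothing. The members' profiles were set beside those of 8478 other tested genes over the 12 libraries, as a description in which all points share the genotype split. The nearest by Pearson's r of log2 CPM were Asns (0.98), Lilrb4a (0.97) and Zap70 (0.96) for Bcl2a1b, and Ebi3 (0.98), Cdk6 (0.97) and Tnfsf8 (0.96) for Bcl2a1d. For Mcl1 they were Zscan26 (0.97), Mysm1 and Etfbkmt (both 0.96), and for Fas they were Nsg2 (0.98), Eno3 and Rnf2 (both 0.97). The best values of the members not called within a tissue were lower, with Acad8 (0.88) for Bcl2, Arf4 (0.88) for Bcl2l1, Zfp810 (0.87) for Bcl2l11, Pias3 (0.82) for Bbc3 and Polr3k (0.90) for Bax. Among the members themselves, Bcl2a1b and Bcl2a1d had r = 0.96, which their shared reads can raise, Mcl1 and Fas had 0.81, and Bcl2a1d had -0.77 with Fas and -0.74 with Mcl1.

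The members lie at separate places in the genome apart from the Bcl2a1 cluster. On GRCm38, in the GENCODE M21 annotation, the protein-coding genes span chr1:106538178-106714274 (Bcl2, minus strand), chr2:152780668-152831728 (Bcl2l1, minus), chr2:128126038-128162547 (Bcl2l11, plus), chr3:95658788-95663176 (Mcl1, plus), chr7:45461697-45466898 (Bax, minus), chr7:16308393-16318205 (Bbc3, plus) and chr19:34290666-34327772 (Fas, plus). Bcl2a1b spans chr9:89199209-89207827 on the plus strand and Bcl2a1d chr9:88723285-88731914 on the minus strand, with Bcl2a1a between them. Strand was not given for the counting, so reads from a gene and from transcripts on its other strand cannot be told apart.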

How the data were processed

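RNA of 1000 sorted Treg per library was copied by Smart-seq2, amplified for 18 cycles without molecular identifiers and read as paired 38 nt reads, per the labels' protocols. STAR 2.7.3a, featureCounts, Subread 2.0.0 and mm10 were used, per the submitters' processing notes; no source used here gives the annotation, strand or multi-mapping settings. The table the authors deposited holds raw whole-number counts per gene symbol for 12 libraries. Counts were tested with edgeR 4.0.16 in R 4.3.3 (TMM factors, filterByExpr by group, robust quasi-likelihood fit with group as the only term, 6 contrasts, two-sided, Benjamini-Hochberg adjustment over 13295 genes). Errors are SEs of the fit and intervals are 95%. Scripts were tested on simulated data.

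Members and lists were chosen with earlier results of these data known. Named genes were the members, Foxp3 and, per list, up to 4 higher and 4 lower called genes by adjusted p with a mean of 10 CPM or more (2 and 2 outside the genotype contrasts), or the 2 most abundant where none was called. Bak1, Bcl2l15, Tnfrsf1b, Fcmr, Mdm4, Rel, Il4ra, Trp53 and Stat5b in spleen, and single marker genes, were named after their values were seen. Not every gene that the rule names is reported here. Same-numbered libraries did not deviate together, so no pairing was used. Alternatives were other scaling, filters, DESeq2 1.42.0, limma 3.58.1 (voom), fits of the compared groups, a replicate block and leaving out each library. Leaving out the libraries that stood apart, or Gm10800 and Gm10801, was added after seeing the data. Not tested for low counts were Bcl2a1a, Bcl2l10, Bok, Hrk, Endog, Phlda3, Eda2r, Gadd45a and Usp13.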

Additional observations from a re-analysis of the deposited data

Results flagged for a closer look

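A pair of genes from the surrounding pathway lists had genotype effects that differed between the tissues by the test of the difference itself (edgeR's quasi-likelihood test, Benjamini-Hochberg adjusted over all genes). That test called 0.925% of all tested genes. For this pair it was not repeated under the alternatives or without the 3 libraries that stood apart. Btg2, an anti-proliferative p53 target, fell in spleen (log2 change -2.17) and rose in lung (0.82), a difference of 2.98 ± 0.31 (adjusted p = 0.000496). The lung rise alone lost its call in 4 of 23 alternatives. Its libraries held 633 to 744 CPM in spleen WT and 127 to 166 in spleen ∆Foxp3, and 191 to 359 in lung WT and 389 to 547 in lung ∆Foxp3. Birc5 rose by 3.70 in spleen and was at 0.83 in lung (adjusted p = 0.108), a difference of -2.87 ± 0.50 (adjusted p = 0.017). Its libraries held 11.8 to 26.0 CPM in spleen WT, 149 to 315 in spleen ∆Foxp3, 88.5 to 170 in lung WT and 166 to 288 in lung ∆Foxp3. Lung WT also held more of the 8 cell cycle markers (972 to 1456 CPM) than spleen WT (269 to 415 CPM). The 14 dissociation response markers summed to 678 to 1364 CPM in spleen WT and 558 to 703 in spleen ∆Foxp3, and to 1567 to 4995 in lung WT and 3698 to 5420 in lung ∆Foxp3. The alleles given in the labels differ between the ∆Foxp3 groups, and the part of all these in these differences was not tested.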

How the results depend on the processing

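The 4 spleen calls (Bcl2a1b, Bcl2a1d, Mcl1, Fas) and the lung calls of Bcl2a1b and Bcl2a1d held under every alternative. Leaving out single libraries gave 4 to 5 called members in spleen, 2 to 6 in lung, 0 to 1 between tissues in WT, 0 in ∆Foxp3, 0 for the interaction and 4 to 5 for the average; over the same fits, all genes called ran from 2710 to 3575 in spleen and from 1457 to 3364 in lung. Without the libraries that stood apart, lung had 2. Between tissues in WT, RLE factors and leaving out Gm10800 and Gm10801 gave 0 and no low-count filter 2; limma voom gave 1 between tissues in ∆Foxp3. The replicate block gave 4 in place of 5 for the average (Bax, adjusted p = 0.0582, edgeR) and changed no other count. Of 1206 member values under alternatives, 1119 kept direction and side of the threshold, 34 lost a call, 14 gained one and 39 changed sign; the cause was not tested.

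All sign changes were of members that were not called. Without the libraries that stood apart, values became -0.072 (Bcl2l11, spleen), 0.29 and 0.059 (Bcl2 and Bcl2l11, lung), -0.023 (Bcl2l11, WT tissues), 0.11 and -0.036 (Bcl2l11 and Bcl2a1b, ∆Foxp3 tissues), 0.24, 0.13 and -0.084 (Bcl2, Bcl2l11 and Bax, interaction) and 0.17 (Bcl2, average). limma gave -0.051 (Bcl2, spleen) and library totals -0.0021 (Bax, WT tissues). With single libraries left out, the ranges were, in spleen, -0.30 to 0.38 (Bcl2) and -0.072 to 0.33 (Bcl2l11), in lung -0.55 to 0.089 (Bcl2) and -0.28 to 0.033 (Bcl2l11), and between WT tissues -0.059 to 0.27 (Bax). Between ∆Foxp3 tissues they were -0.20 to 0.12 (Bcl2l11), -0.27 to 0.0097 (Mcl1), -0.037 to 0.19 (Bcl2a1b) and -0.40 to 0.18 (Bcl2a1d). For the interaction they were -0.65 to 0.10 (Bcl2) and -0.075 to 1.00 (Bcl2a1d), and for the average -0.24 to 0.10 (Bcl2), -0.013 to 0.27 (Bcl2l1) and -0.11 to 0.089 (Bcl2l11). Bbc3 and, in WT, Bcl2a1d had the fewest counts of the members.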
